A study of Mus musculus with 6 samples.

Results

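The small leucine-rich proteoglycans and the adhesive glycoproteins of the extracellular matrix were examined in mouse osteoblasts through the mRNAs of 10 genes. The genes were chosen by name, as the rows of the gene table named Dcn, Bgn, Fmod, Lum, Ogn and Aspn (proteoglycans) and Fn1, Tnc, Thbs1 and Thbs2 (glycoproteins), and all 10 were found among the 21686 genes listed. RNA was sequenced from MC3T3-E1 Subclone 14 cells, a clonal mouse line of osteoblast precursors. The design text of the series names fibroblasts and a shorter treatment instead, and the cells and the time are given here by the labels of the samples. The control group received 100 µL of PBS, the dexamethasone group received 10 µM dexamethasone, a synthetic glucocorticoid, and the dexamethasone + EPC-EVs group received 10 µM dexamethasone together with 100 µg of extracellular vesicles (EPC-EVs, labelled EPCs-exo) of bone marrow endothelial progenitor cells. All groups were harvested at 72 hours, with 2 libraries each, so that each p-value below measures only the spread between 2 libraries of 1 cell line, which the study calls biological replicates. No group received EPC-EVs without dexamethasone, so an effect of the vesicles alone cannot be told apart from their effect in the presence of the steroid. In such bulk samples, fewer cells that make an mRNA and less of that mRNA per cell cannot be told apart either.

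Small leucine-rich proteoglycans are secreted proteins whose curved leucine-rich repeats bind collagen, and which carry chondroitin, dermatan or keratan sulfate chains. They set the spacing and thickness of collagen fibrils and hold growth factors such as TGF-β in the matrix. Fibronectin, tenascin-C and the thrombospondins are large modular glycoproteins that cells attach to, pull on or are released by, through integrins and other surface receptors. In bone, both groups are made by cells of the osteoblast lineage during the assembly of the collagenous matrix that is later mineralised.

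The total counts ranged from 5146760 to 6583735 over the 4 libraries of control and dexamethasone and were 12864009 and 13182014 in dexamethasone + EPC-EVs, and 3 counts, the limit that a count of 0 allows, correspond to between 0.235 and 0.597 CPM (counts per 1000000 of the TMM-normalized library total), for counting error only. The dexamethasone + EPC-EVs libraries stood apart from the others before any gene of interest was read. Their depth and the mitochondrial share given next divide the libraries along the same line as the treatment. A difference in how the libraries were made therefore cannot be told apart from an effect of the vesicles, and it was not tested. Mitochondrially encoded genes took 0.465% and 0.727% of their counts, against 5.55% to 8.62% in the other 4 libraries. Genes poor in G and C were lower and genes rich in them higher in these libraries: among all genes tested against dexamethasone, the median log2 fold change was -0.93 in the decile of genes with the lowest GC content (28.3% to 40.5% of the longest transcript) and 0.89 in the decile with the highest. In dexamethasone against control the trend had the same direction and was smaller, with medians of -0.26 and 0.42 in these deciles. This matters for the proteoglycans, since Aspn (34.3% GC), Ogn (36.3%) and Dcn (37.4%) lie in that lowest decile and Lum (41.9%) in the next, whereas Thbs2, Thbs1, Bgn, Tnc, Fn1 and Fmod lie between 48.4% and 53.7%. A correction of each library for GC content and transcript length (a smooth trend over all genes, taken out before the fit) was therefore run as well, and corrected values stand beside those of the members and of the matrix genes named from lists where it ended a call or moved a difference by over 1.5 times. Of the 14 osteoblast markers in the table, Alpl, Bglap, Ibsp and Pth1r stayed under 10 CPM in all 6 libraries and Sp7 in 5 of them. Col1a1 and Col1a2 were abundant in all 6, and Spp1 was between 10249 and 11314 CPM without EPC-EVs and at 6104 and 4405 CPM with them. Dmp1 was between 240 and 348 CPM without EPC-EVs and at 138 and 26.1 CPM with them, and Phex between 20.8 and 27.7 CPM and at 8.16 and 3.53 CPM. Sparc went the other way, from between 751 and 1061 CPM to 2472 and 2529 CPM. Against dexamethasone the log2 fold changes were 1.25 for Sparc (0.95 with the correction), -1.06 for Spp1 (-0.50) and -1.92 for Phex (-1.15), all called by edgeR in both fits, and Dmp1 was not called. Runx2 and Dlx5 stayed above 40 CPM in all 6. The endothelial genes Cdh5, Tek, Emcn and Pecam1 had between 0 and 21 counts in any library, and 7 of the 9 endothelial markers in the table stayed under 10 CPM in all 6. Their summed level, which comes almost wholly from Cd34 and Flt1, was between 480 and 537 CPM without EPC-EVs and between 333 and 409 CPM with them. The summed level of 7 haematopoietic markers was between 21.1 and 27.2 CPM without EPC-EVs and between 44.7 and 88.8 CPM with them. Most of that rise was in Cd14 (between 3.06 and 10.3 CPM without EPC-EVs, 24.2 and 33.4 CPM with them) and, in replicate 2, Csf1r (up to 2.91 CPM, against 4.44 and 37.0 CPM), whereas Cd68 was between 3.39 and 4.66 CPM without them and at 2.85 and 1.65 CPM with them, and Adgre1 and Laptm5 stayed under 1 CPM. The part of these genes in the results was not tested.

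All 10 members passed the filter on low counts in each comparison, and together they took between 2.88% and 3.18% of the counts of a library. Their levels per length, as FPKM (fragments per kilobase of gene, scaled to the library total), spanned a wide range. Fn1, the gene of fibronectin, was the most abundant in every group, with a mean FPKM of 1517 ± 146 (SD, n = 2) in control. Bgn followed with 999 ± 164 and Thbs2 with 323 ± 4.26. Then came Thbs1 with 282 ± 34.6, Fmod with 146 ± 1.77, Dcn with 101 ± 5.43, Lum with 92.7 ± 12.2, Tnc with 60.2 ± 4.94, Aspn with 46.6 ± 27.5 and Ogn with 41.6 ± 17.7. In control, the libraries of Dcn and Lum overlapped on this scale, as did those of Tnc and Aspn and of Aspn and Ogn, and the other neighbours in the order did not overlap. In dexamethasone the order was the same but for its end, where Ogn stood above Aspn, and the libraries of Thbs1 and Fmod and of Lum and Tnc overlapped. In dexamethasone + EPC-EVs it was Fn1, Bgn, Fmod, Thbs2, Thbs1, Tnc, Aspn, Ogn, Lum and Dcn, with overlapping libraries for Fmod and Thbs2, for Ogn and Lum and for Lum and Dcn. Dcn thus moved from the sixth place to the last and Fmod from the fifth to the third.

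**Figure D1:**
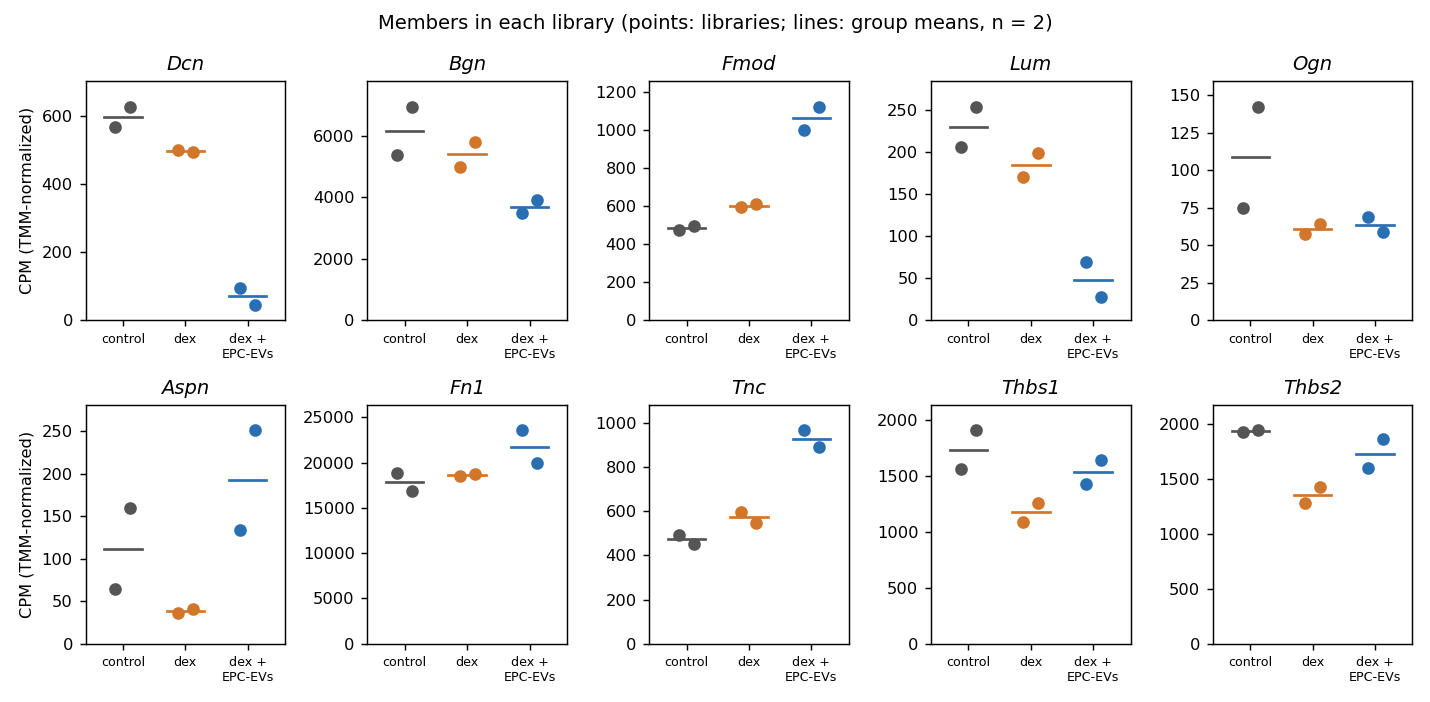
CPM (counts scaled to TMM-normalized library totals, vertical axis from 0, with its own scale in each panel) of the 10 members in the 3 groups, with 1 point per library and a line at the mean of the 2 libraries. Dcn and Lum sit lowest in dexamethasone + EPC-EVs, Fmod and Tnc sit highest there, and Aspn, Thbs1 and Thbs2 sit lowest in dexamethasone.

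Several members lie beside relatives, and the positions help to read their values (GRCm38, 1-based, positions of GENCODE vM21). Dcn (ENSMUSG00000019929, chr10:97479609-97518143, + strand) and Lum (ENSMUSG00000036446, chr10:97565128-97572703, + strand) are 47.0 kb apart and are followed by their relatives Kera and Epyc, which had between 0 and 4 counts in any library. Aspn (ENSMUSG00000021388, chr13:49544443-49567565, + strand) and Ogn (ENSMUSG00000021390, chr13:49608046-49624501, + strand) flank Omd, next to Ecm2, and this cluster lies within Cenpp on the opposite strand. The strand setting of the authors' counting is not given in the sources used here, but Cenpp had between 15 and 49 counts in any library, few beside those of Aspn and Ogn. Fmod (ENSMUSG00000041559, chr1:134037254-134048277, + strand) has Prelp, another collagen-binding relative, 116 kb away on the opposite strand (chr1:133910304-133921414). Bgn (ENSMUSG00000031375) is at chrX:73483602-73495933 on the + strand. Of the glycoprotein genes, Fn1 (ENSMUSG00000026193, chr1:71585520-71653200), Tnc (ENSMUSG00000028364, chr4:63959785-64047015) and Thbs2 (ENSMUSG00000023885, chr17:14665500-14694235) are on the - strand, and Thbs1 (ENSMUSG00000040152, chr2:118111876-118127133) is on the + strand. All 10 are protein-coding genes.

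RefSeq promoter sequences (GRCm38.p6) were at hand for 6 of the 10 members, Bgn, Fmod, Ogn, Aspn, Tnc and Thbs2, and for Prelp. The 250 bases before the start are shown for Aspn and Ogn and for Fmod and Prelp. Aspn and Ogn are neighbours in 1 cluster, of which only Aspn was called in dexamethasone + EPC-EVs against dexamethasone. With the GC and length correction both were called higher. Fmod and Prelp are neighbours that moved in opposite directions. Capitals mark matches on either strand to TATAAA (the letters of a TATA box), TGANTCA (AP-1), the glucocorticoid receptor palindrome (GNACA and TGTNC with 3 bases between), TGTGGT (Runx) or GGAATG (TEAD), of which the overlapping TATAAA matches in Ogn share bases.
Aspn (chr13:49544193-49544442, + strand): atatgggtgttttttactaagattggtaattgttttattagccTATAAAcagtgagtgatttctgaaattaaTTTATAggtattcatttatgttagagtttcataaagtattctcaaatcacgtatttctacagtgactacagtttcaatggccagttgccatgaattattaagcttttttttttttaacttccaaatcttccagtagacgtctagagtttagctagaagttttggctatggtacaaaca
Ogn (chr13:49607765-49608014, + strand): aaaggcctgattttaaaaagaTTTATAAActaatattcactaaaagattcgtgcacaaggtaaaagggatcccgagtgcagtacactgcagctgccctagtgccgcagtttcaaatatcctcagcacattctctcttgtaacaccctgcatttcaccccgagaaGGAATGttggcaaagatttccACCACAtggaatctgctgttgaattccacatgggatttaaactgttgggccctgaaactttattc
Fmod (chr1:134037004-134037253, + strand): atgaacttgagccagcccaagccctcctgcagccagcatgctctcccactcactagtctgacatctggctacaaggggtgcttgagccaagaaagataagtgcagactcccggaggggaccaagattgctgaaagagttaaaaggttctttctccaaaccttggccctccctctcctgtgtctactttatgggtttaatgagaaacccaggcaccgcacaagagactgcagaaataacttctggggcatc
Prelp (chr1:133921402-133921651, - strand): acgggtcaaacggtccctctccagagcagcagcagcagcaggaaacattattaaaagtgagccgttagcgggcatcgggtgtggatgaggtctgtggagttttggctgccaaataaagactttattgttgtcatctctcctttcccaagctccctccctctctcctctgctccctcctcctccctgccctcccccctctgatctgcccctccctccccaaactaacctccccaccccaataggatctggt
The Aspn window was 30.0% G and C, against a median of 52.4% over 32851 promoters, and held 2 matches to TATAAA, at positions -207 and -178 from the start. The Ogn window (42.0% G and C) held 2 overlapping matches to TATAAA, 1 to the Runx letters and 1 to the TEAD letters. The Fmod (51.2%) and Prelp (55.6%) windows held none of these letters, and none of the windows of the members held those of AP-1 or of the glucocorticoid receptor. Over all promoters, 12.4% held TATAAA, 6.75% the AP-1 letters, 0.387% the glucocorticoid receptor letters, 14.0% the Runx letters and 12.6% the TEAD letters. A match describes letters in this window and no more.

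The first comparison asked how the members differed between osteoblasts given dexamethasone and control osteoblasts. None of the 10 passed an adjusted p of 0.05 in edgeR's quasi-likelihood test, beside 0.0544% of the 12879 genes tested (0.0155% higher and 0.0388% lower). Of the 10, 4 had an unadjusted p under 0.05 (Aspn, Ogn, Thbs1 and Thbs2, all lower in dexamethasone), beside 10.9% of all genes, and DESeq2 called 3 of them (Aspn, Thbs1 and Thbs2), beside 2.64% of the genes to which it gave an adjusted p. The libraries of the groups did not overlap for 8 of the 10, with 2 higher and 6 lower in dexamethasone, beside 44.1% of all genes tested (22.8% higher and 21.2% lower). The median log2 fold change was -0.30 over the 6 proteoglycans and -0.23 over the 4 glycoproteins, against 0.01 over all genes.

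Aspn encodes asporin, a proteoglycan relative that binds collagen and calcium and carries a stretch of aspartic acid residues. Of the members, Aspn had the largest difference. It was at 63.8 and 159 CPM in control and at 35.8 and 40.8 CPM in dexamethasone. Both dexamethasone libraries were below both control libraries, and the control libraries themselves differed 2.50-fold, a larger gap than that of all but 4.03% of 9223 genes. The log2 fold change was -1.55 ± 0.36 (SE), with an unadjusted p of 0.00123 and an adjusted p of 0.256 by edgeR. The value was -2.05 without control replicate 1 and -0.73 without control replicate 2. In these fits, and in every other below that leaves out 1 library, a group has 1 library that is assumed to vary like the pair of the other group, so their p-values leave out the gap within the group and count as descriptions. With the GC and length correction it was -1.14 (adjusted p = 0.129). Ogn, the gene of osteoglycin, which was first isolated from bone, was at 74.6 and 142 CPM in control and at 57.1 and 64.2 CPM in dexamethasone. Its dexamethasone libraries were also the lower, with a log2 fold change of -0.84 ± 0.28 and an adjusted p of 0.351, and its control libraries differed 1.91-fold. For Ogn the value was -1.23 without control replicate 1, -0.29 without control replicate 2 and -0.52 with the correction.

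The thrombospondins, glycoproteins that bind cells through CD47 and CD36 and of which thrombospondin-1 can release TGF-β from its latent form, were both lower in dexamethasone without passing the test. Thbs1 was at 1563 and 1909 CPM in control and at 1091 and 1261 CPM in dexamethasone (log2 fold change -0.57 ± 0.15, adjusted p = 0.286 by edgeR). Thbs2 was at 1928 and 1942 CPM in control and at 1281 and 1427 CPM in dexamethasone (-0.52 ± 0.13, adjusted p = 0.279). In neither did the groups overlap, and the control libraries of Thbs2 lay close together. With the correction the values were -0.64 for Thbs1 and -0.53 for Thbs2.

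The other members had differences of 0.32 or less on the log2 scale in either direction. Dcn, the gene of decorin, was at 567 and 628 CPM in control and at 499 and 494 CPM in dexamethasone (-0.27 ± 0.14, adjusted p = 0.504). Lum, the gene of lumican, was at 205 and 254 CPM and at 171 and 199 CPM (-0.32 ± 0.17, adjusted p = 0.518). Both were lower in each dexamethasone library than in either control library. Fmod and Tnc were slightly higher, with log2 fold changes of 0.30 ± 0.14 (adjusted p = 0.459) and 0.27 ± 0.14 (adjusted p = 0.512). Bgn and Fn1 overlapped between the groups, with log2 fold changes of -0.20 ± 0.15 and 0.05 ± 0.12. With the GC and length correction, Dcn was at -0.0075, Fmod at 0.0085, Tnc at 0.088, Lum at -0.17, Bgn at -0.39 and Fn1 at -0.16 on the log2 scale, so that the differences of Dcn, Fmod and Tnc were near 0. Without control replicate 1, 8 of the 10 were called, beside 16.0% of all genes in that fit, in which the dexamethasone libraries alone give the spread. The control libraries were also farther apart than those of the other groups across the 9223 genes, with a median gap of 0.33 on the log2 scale against 0.20 in both of the other groups.

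The second comparison asked how the members differed when EPC-EVs were given with dexamethasone. Of the 10 members, 7 were called by edgeR, beside 39.8% of the 13556 genes tested. Fmod, Aspn, Tnc and Thbs1 were higher in dexamethasone + EPC-EVs (20.9% of all genes were called higher), and Dcn, Bgn and Lum were lower (18.9% were called lower). Ogn, Fn1 and Thbs2 were not called. The libraries did not overlap for 9 of the 10, with 6 higher and 3 lower, beside 72.6% of all genes tested (38.5% higher and 34.0% lower). Among the 6 proteoglycans, 2 were called higher, 3 were called lower and Ogn was not called. Their log2 fold changes had a median of -0.29, against 0.01 over all genes. Among the 4 glycoproteins, 2 were called higher and none lower, and the median was 0.32. Whether the 6 and the 4 genes differ was not tested. With 18.9% of all genes called lower, 4 genes are too few to read anything from the lack of a lower call.

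Of the members, Dcn fell the most. Decorin, its product, carries a single glycosaminoglycan chain, binds along collagen fibrils and sequesters TGF-β. It had 3430 and 3354 counts in dexamethasone and 1177 and 579 counts in the deeper dexamethasone + EPC-EVs libraries, which correspond to 499 and 494 CPM against 93.2 and 45.5 CPM. Both dexamethasone + EPC-EVs libraries were below all 4 others, and they differed 2.05-fold from each other, a gap that 2.14% of 9223 genes exceeded. Dcn thus differed by a log2 fold change of -2.89 ± 0.31 (7.40-fold lower, adjusted p = 4.07e-04 by edgeR). It was -3.48 without dexamethasone + EPC-EVs replicate 1 and -2.44 without replicate 2. With the GC and length correction it was -1.90, with an adjusted p of 0.0247.

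Lum, whose product lumican carries keratan sulfate in some tissues and shares a collagen binding site with fibromodulin, fell beside its neighbour Dcn. It was at 171 and 199 CPM in dexamethasone and at 69.0 and 27.1 CPM in dexamethasone + EPC-EVs, where replicate 2 was again the lower. The libraries of that group differed 2.55-fold, a gap that 0.889% of genes exceeded. For Lum this gave a log2 fold change of -1.99 ± 0.44 (3.97-fold lower, adjusted p = 0.0175 by edgeR). This call was the less certain of the pair: with the GC and length correction the log2 fold change was -1.43 with an adjusted p of 0.0927, it was -2.80 without dexamethasone + EPC-EVs replicate 1 and -1.44 without replicate 2, and without the filter on low counts the adjusted p was 0.0829.

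Bgn, the gene of biglycan, the close relative of decorin and the most abundant of the 6 proteoglycan mRNAs, was at 5008 and 5822 CPM in dexamethasone and at 3486 and 3904 CPM in dexamethasone + EPC-EVs. The groups did not overlap, and the log2 fold change was -0.60 ± 0.12 (1.51-fold lower, adjusted p = 0.00188 by edgeR). Without dexamethasone replicate 2 the adjusted p was 0.0721. Unlike Dcn and Lum, Bgn has a GC content in the upper part of the genes tested (51.2%), and with that correction its log2 fold change was -0.81 (adjusted p = 2.26e-04).

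Of the members, Aspn rose the most. It had 246 and 277 counts in dexamethasone and 1684 and 3198 counts in dexamethasone + EPC-EVs, which correspond to 35.8 and 40.8 CPM against 133 and 251 CPM. Both dexamethasone + EPC-EVs libraries were above both dexamethasone libraries, and they differed 1.88-fold, with replicate 2 the higher, the reverse of Dcn and Lum. The log2 fold change was 2.28 ± 0.26 (4.86-fold higher, adjusted p = 8.72e-05 by edgeR), and it was 2.68 and 1.78 without dexamethasone + EPC-EVs replicates 1 and 2. Among the members Aspn is the poorest in G and C, and 85.3% of the genes in the lowest decile of GC content were lower in dexamethasone + EPC-EVs. With the GC and length correction its log2 fold change was 3.72. Only 0.325% of the genes tested are poorer in G and C than Aspn, so this value lies at the edge of the trend.

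Ogn, next to Aspn in the cluster, was at 57.1 and 64.2 CPM in dexamethasone and at 68.6 and 58.6 CPM in dexamethasone + EPC-EVs. The groups overlapped and differed by 0.02 ± 0.18 on the log2 scale (adjusted p = 0.933 by edgeR), a value whose sign changed under 5 of the alternatives. With the GC and length correction, Ogn was higher in dexamethasone + EPC-EVs, at 1.199 on the log2 scale and an adjusted p of 4.93e-04. Ogn too lies near the edge of the trend, with 1.49% of the genes tested poorer in G and C. The other genes of the cluster had few counts, between 2 and 17 for Omd and between 3 and 26 for Ecm2.

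Fmod, the gene of fibromodulin, a keratan sulfate proteoglycan that binds collagen during fibril assembly, rose. It had 4075 and 4156 counts in dexamethasone and 12626 and 14319 counts in dexamethasone + EPC-EVs, or 593 and 612 CPM against 1000 and 1124 CPM. The replicates of each group lay close together and the groups did not overlap. Fmod differed by a log2 fold change of 0.77 ± 0.12 (1.71-fold higher, adjusted p = 3.27e-04 by edgeR), and 0.40 with that correction (adjusted p = 0.021). Its neighbour Prelp, whose product anchors basement membranes to collagen, went the other way. Prelp was at 197 and 225 CPM in dexamethasone and at 42.5 and 20.7 CPM in dexamethasone + EPC-EVs (-2.78 ± 0.29, adjusted p = 9.59e-05). Prelp has a GC content of 53.8%, and with the correction its log2 fold change was -3.17.

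The make-up of the proteoglycan mRNAs changed accordingly. As a share of the summed FPKM of the 6 genes, Bgn made up between 68.8% and 70.8% in the 4 libraries without EPC-EVs and 57.1% and 56.7% in the 2 with them. Fmod made up between 9.24% and 15.04% in the former 4 and 30.2% and 30.1% in the latter. Dcn made up between 6.28% and 7.69%, against 1.59% and 0.690%, and Aspn between 1.28% and 4.16%, against 5.66% and 9.45%. Per length there were between 0.178 and 0.630 Aspn fragments for each of Dcn in the 4 libraries without EPC-EVs, and 3.55 and 13.7 in the 2 with them. Aspn and Dcn, whose products compete for collagen, thus exchanged their order. Between Fmod and Lum, whose products share a collagen binding site, the FPKM ratio went from between 1.45 and 2.57 to 10.7 and 30.7. These shares and ratios use FPKM without the GC and length correction, under which the log2 fold change of Fmod was 0.40 in place of 0.77 and that of Lum -1.43 in place of -1.99, and the call of Lum was lost. The sum over the 6 genes was between 1245 and 1588 FPKM without EPC-EVs and 983 and 1090 FPKM with them.

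**Figure D2:**
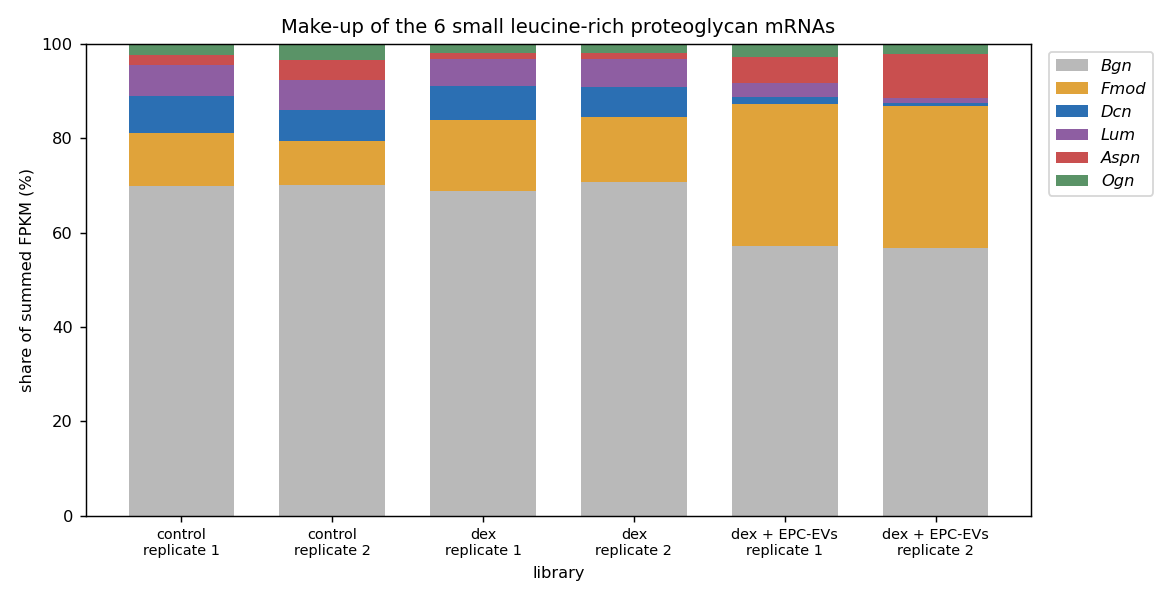
Share of each of the 6 small leucine-rich proteoglycan genes in their summed FPKM (percent, vertical axis) in each library (horizontal axis), stacked to 100. Bgn is the largest share in all 6 libraries, and in both dexamethasone + EPC-EVs libraries the shares of Fmod (30.2% and 30.1%) and Aspn are larger and those of Dcn and Lum smaller than in the other 4.

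Of the adhesive glycoproteins, Tnc changed the most. Tenascin-C is a hexameric glycoprotein that loosens the attachment of cells to fibronectin and is made at sites of remodelling. Tnc was at 597 and 548 CPM in dexamethasone and at 966 and 891 CPM in dexamethasone + EPC-EVs, and it lay above both other groups in each replicate. The log2 fold change was 0.65 ± 0.12 (1.57-fold higher, adjusted p = 9.89e-04 by edgeR), and 0.45 with the GC and length correction (adjusted p = 0.00792).

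Thbs1 was at 1091 and 1261 CPM in dexamethasone and at 1427 and 1644 CPM in dexamethasone + EPC-EVs, with a log2 fold change of 0.34 ± 0.12 and an adjusted p of 0.0456 by edgeR. The call was close to the threshold and was lost under 8 of 15 alternatives, among them another normalization, all 6 libraries in one fit and leaving out either dexamethasone library. After that correction it was 0.25 and not called (adjusted p = 0.134). Thbs2 was at 1281 and 1427 CPM in dexamethasone and at 1601 and 1860 CPM in dexamethasone + EPC-EVs, with a log2 fold change of 0.31 ± 0.12 and an adjusted p of 0.0594, and it passed under 4 of the 15 alternatives, among them the same correction (0.33, adjusted p = 0.0477). The thrombospondin genes had nearly the same pattern over the 6 libraries, and the FPKM ratio of Thbs2 to Thbs1 stayed between 1.04 and 1.26 in all of them.

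Fn1, whose product is assembled into fibrils by integrins and forms a scaffold for collagen, had 127494 and 127261 counts in dexamethasone and 297686 and 254587 counts in dexamethasone + EPC-EVs. On the CPM scale this was 18561 and 18735 against 23577 and 19985. The dexamethasone + EPC-EVs libraries were both above the others, but replicate 2 only slightly. The log2 fold change was 0.18 ± 0.11, with an adjusted p of 0.228 by edgeR. Without replicate 2 of that group it was 0.31, and with the GC and length correction it was -0.05.

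**Figure D3:**
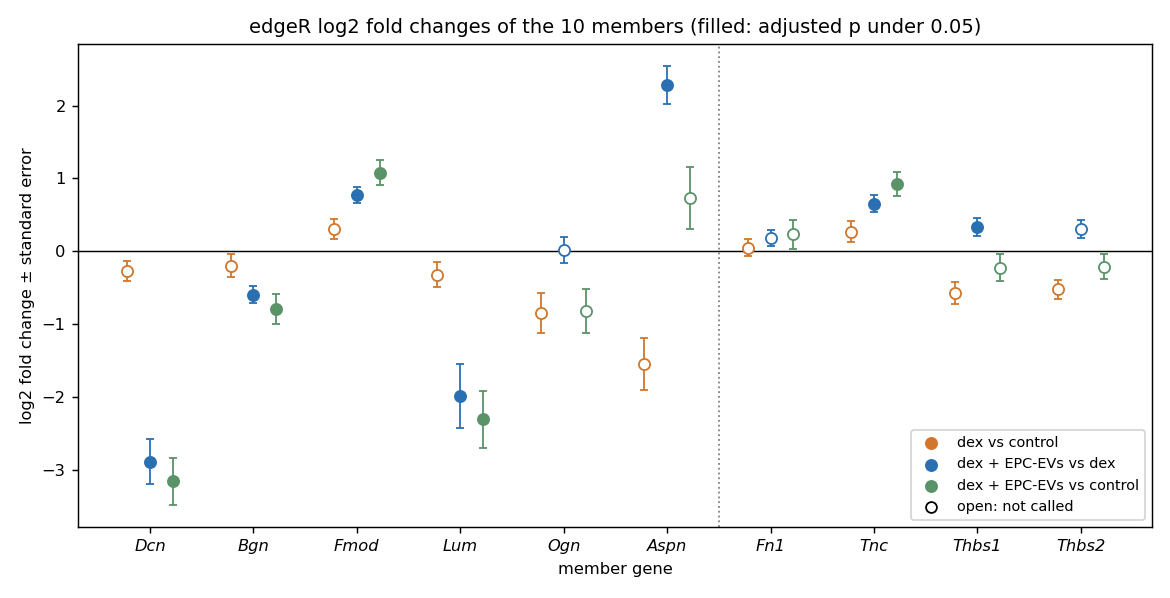
log2 fold changes (vertical axis) with their standard errors for the 10 members (horizontal axis) in the 3 comparisons, from edgeR, with filled symbols for an adjusted p under 0.05 and a dotted line between proteoglycans and glycoproteins. No symbol of dexamethasone vs control is filled, and against dexamethasone Dcn (-2.89) and Aspn (2.28) lie farthest from 0 in dexamethasone + EPC-EVs.

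The third comparison set dexamethasone + EPC-EVs against control. It shares libraries with both of the others, so that the 3 values of a gene are not independent. Of the 10 members, 5 were called by edgeR, beside 36.4% of the 13511 genes tested. Fmod and Tnc were higher (19.1% of genes were called higher), and Dcn, Bgn and Lum were lower (17.2% were called lower). The libraries did not overlap for 8 of the 10, with 3 higher and 5 lower, beside 73.0% of all genes (39.1% higher and 33.9% lower). The log2 fold changes were -3.16 ± 0.32 for Dcn (8.91-fold lower, adjusted p = 4.35e-04), -2.31 ± 0.39 for Lum (adjusted p = 0.00281) and -0.79 ± 0.20 for Bgn (adjusted p = 0.0166). For Fmod it was 1.08 ± 0.17 (adjusted p = 0.00211) and for Tnc 0.92 ± 0.17 (adjusted p = 0.00382). After the GC and length correction these were -1.90 for Dcn, -1.60 for Lum, -1.19 for Bgn and 0.54 for Tnc, all called, while the call of Fmod was lost (0.41, adjusted p = 0.117). Without dexamethasone + EPC-EVs replicate 1 Dcn was at -3.75 and Lum at -3.12, and without replicate 2 they were at -2.71 and -1.77. The call of Bgn was also lost without dexamethasone + EPC-EVs replicate 1 (-0.70, adjusted p = 0.0569) and by limma on the gene FPKM (-0.75, adjusted p = 0.0745).

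Aspn, Ogn, Thbs1 and Thbs2, which had an unadjusted p under 0.05 in dexamethasone against control, were not called between dexamethasone + EPC-EVs and control. Aspn was at 133 and 251 CPM in dexamethasone + EPC-EVs and at 63.8 and 159 CPM in control, and the groups overlapped (0.74 ± 0.43, adjusted p = 0.208). It was called under 6 of the 15 alternatives: without control replicate 2 (1.56, adjusted p = 0.0239), without dexamethasone + EPC-EVs replicate 1 (1.13, adjusted p = 0.00217), without the filter on low counts (0.78, adjusted p = 0.0115), with the replicate block (0.81, adjusted p = 0.014), with that block in a fit of all 6 libraries (0.80, adjusted p = 0.0166) and with the GC and length correction (2.58, adjusted p = 5.88e-04). It was not called under the other 9, and fell to 0.26 (adjusted p = 0.590) without control replicate 1 and to 0.22 (adjusted p = 0.699) without dexamethasone + EPC-EVs replicate 2. Thbs1 (-0.23 ± 0.19, adjusted p = 0.376) and Thbs2 (-0.21 ± 0.17, adjusted p = 0.378) lay between the levels of the other groups, and the libraries of Thbs1 overlapped those of control. With the correction they were at -0.38 and -0.20. Ogn differed from control by -0.82 ± 0.30 on the log2 scale (adjusted p = 0.0658), and by -1.17 without control replicate 1 and -0.26 without control replicate 2. It was called under 6 of the 15 alternatives, and with that correction its log2 fold change was 0.68. Fn1 had a log2 fold change of 0.23 ± 0.20 (adjusted p = 0.389), and -0.20 with that correction. Under the threshold of the study's methods, an unadjusted p under 0.05 with a log2 fold change beyond 1.5, 1 member (Aspn) passed in dexamethasone against control, 3 (Dcn, Lum and Aspn) in dexamethasone + EPC-EVs against dexamethasone and 2 (Dcn and Lum) against control, beside 1.41%, 14.2% and 20.7% of all genes.

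The transcript table, which holds chromosome 1, has 24 transcripts of Fn1 (17 annotated and 7 assembled from the reads) and 3 of Fmod. For Fmod, the annotated transcript ENSMUST00000048183.7 made up between 89.2% and 99.7% of the summed transcript FPKM of the gene in every library. It was at 105 and 94.8 FPKM in control, 149 and 149 FPKM in dexamethasone and 267 and 296 FPKM in dexamethasone + EPC-EVs, so its libraries followed those of the gene. For Fn1, the estimates differed between replicates. The largest transcript was the assembled MSTRG.3918.9 in 4 libraries, the annotated ENSMUST00000055226.12 in control replicate 2 and the assembled MSTRG.3918.17 in dexamethasone replicate 1, and it made up between 31.5% and 70.2% of the summed FPKM. MSTRG.3918.17 was at 819 and 722 FPKM in dexamethasone and at 115 and 47.4 FPKM in dexamethasone + EPC-EVs, which gave -3.36 ± 0.52 on the log2(FPKM + 1) scale (unadjusted p = 0.00145, adjusted p = 0.167 by limma). In control it was at 662 and 110 FPKM, so that control replicate 1 was near the dexamethasone libraries and control replicate 2 near the dexamethasone + EPC-EVs libraries. None of the 27 transcripts was called by limma between dexamethasone + EPC-EVs and dexamethasone, where 11 had an unadjusted p under 0.05, beside 15% of the 9311 transcripts of the chromosome that were tested. Transcripts of 1 gene share reads, so these 11 are not independent. Over all transcripts of the chromosome this test called 0.0547%, 0.0107% and 0.0539% in the 3 comparisons in the order given above, so a transcript that was not called says little at 2 libraries a group.

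**Figure D4:**
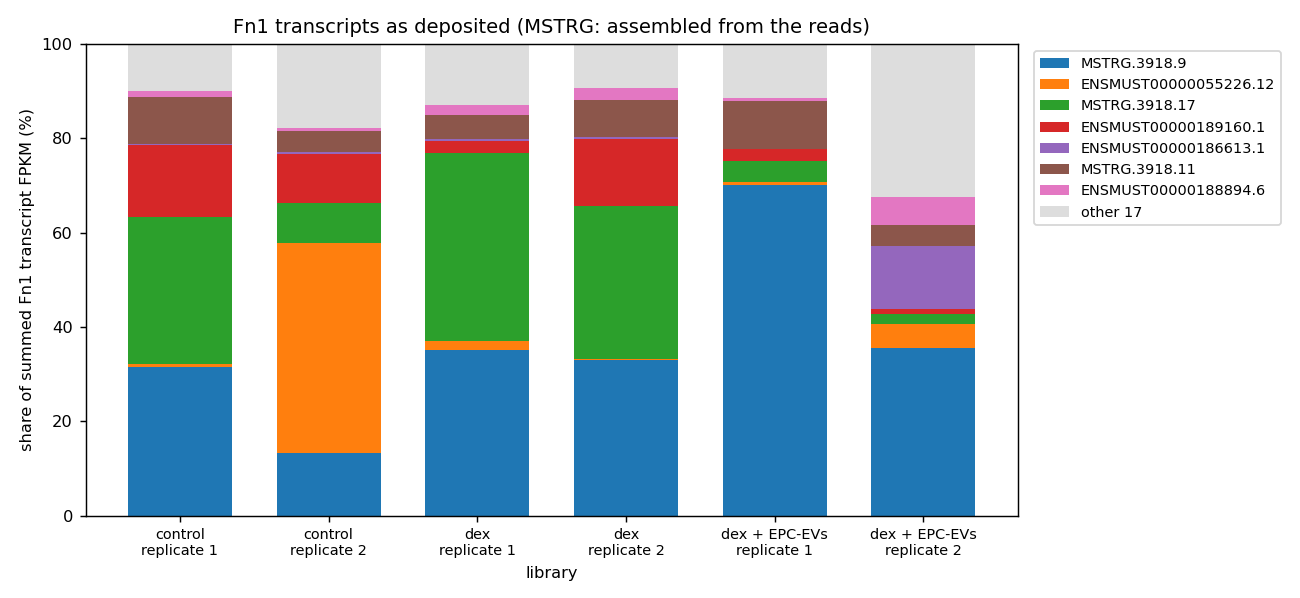
Share of the summed Fn1 transcript FPKM (percent, vertical axis, stacked to 100) of the 7 transcripts with the largest share in any library and of the other 17, by library (horizontal axis). MSTRG.3918.9 ranges up to 70.2%, and the shares differ between replicates, with ENSMUST00000055226.12 at 44.4% in control replicate 2.

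The wider families of matrix genes were read from lists of named genes. No gene of these lists was called by edgeR in dexamethasone against control, and with the GC and length correction Ccn3, listed as Nov, was called lower (-1.49 to -1.43, adjusted p = 0.0757 to 0.0259), beside 0.14% of all genes. In dexamethasone + EPC-EVs against dexamethasone the share of tested genes that was called is read against the 39.8% of all genes, and nothing particular to a list is drawn from it. The GC and length correction of the lists was chosen after the data were seen, and with it 32.8% of all genes were called. In dexamethasone + EPC-EVs against dexamethasone, the other small leucine-rich proteoglycans had 4 genes tested, of which 2 (50%) were lower, Prelp and Tsku, with the correction also. Tsku, which encodes tsukushi, an inhibitor of BMP and other signals, was at 56.4 ± 15.1 CPM (SD, n = 2) in dexamethasone and 30.1 ± 5.71 CPM in dexamethasone + EPC-EVs (log2 fold change -0.95, adjusted p = 0.00774, and -1.47 with the correction). Together with the members, no small leucine-rich proteoglycan apart from Fmod and Aspn was called higher, while with the correction Ogn was too. Of the large and basement membrane proteoglycans all 4 tested were called. Hspg2, the gene of perlecan, was at 1608 ± 74.4 CPM and 2687 ± 104 CPM (0.69, adjusted p = 4.22e-04), Spock2 at 76.1 ± 2.92 CPM and 258 ± 0.620 CPM (1.71, adjusted p = 4.87e-06), and Agrn, the gene of agrin, was also higher (0.56, adjusted p = 0.00992). Vcan, the gene of versican, a large hyaluronan-binding proteoglycan, fell from 371 ± 59.3 CPM to 189 ± 0.970 CPM (-1.02, adjusted p = 1.90e-04). With the correction Hspg2 (0.059, adjusted p = 0.701) and Agrn (0.12, adjusted p = 0.575) were not called, and Spock2 (1.23) and Vcan (-0.47, adjusted p = 0.0209) were.

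On the cell surface, 2 of 10 proteoglycan genes were higher and 4 lower (60% called), and 1 and 4 with the correction. Cd44, the hyaluronan receptor that can carry chondroitin sulfate, fell from 1056 ± 34.0 CPM in dexamethasone to 392 ± 72.4 CPM in dexamethasone + EPC-EVs (-1.48, adjusted p = 1.36e-05), and Sdc4, the syndecan of focal adhesions, fell by 0.79 on the log2 scale (adjusted p = 3.69e-04). Gpc1, the gene of a glypican, rose by 1.10 (adjusted p = 2.25e-04), a call that was lost with the correction (0.34, adjusted p = 0.0846). Of 17 receptors of the members, 6 were higher and 1 lower (41.2% called, close to the share over all genes), and 6 and 3 with the correction. Itgb5, an integrin subunit of receptors for vitronectin, rose from 146 ± 17.0 CPM to 670 ± 95.2 CPM (2.16, adjusted p = 1.70e-06), and Tlr2, a receptor through which biglycan is known to signal, rose from 10.1 ± 1.58 CPM to 30.2 ± 2.88 CPM (1.53, adjusted p = 0.00104). Cd47, a receptor of thrombospondins, was the gene that fell, from 323 ± 62.0 CPM to 111 ± 5.32 CPM (-1.59, adjusted p = 1.65e-05). Thbs1 was called higher in the same group, a call that was lost with the correction (0.25, adjusted p = 0.134 by edgeR).

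Of the other thrombospondins and tenascins, 3 of 4 tested (75%) were higher and none lower, and 2 were higher with the correction. Thbs3 was at 40.6 ± 10.9 CPM and 78.0 ± 6.40 CPM (0.90, adjusted p = 0.00529, and 0.50 with the correction, adjusted p = 0.0889). Tnn, the gene of tenascin-W, which is made by osteoblasts, was at 9.03 ± 5.76 CPM in dexamethasone and 110 ± 65.6 CPM in dexamethasone + EPC-EVs, with a wide spread within both groups (3.57 ± 0.65, adjusted p = 0.011). The largest of the lists, other adhesive and fibre glycoproteins, had 15 higher and 5 lower of 33 tested (60.6% called). Their median log2 fold change was 0.51, against 0.01 for all genes. With the correction 14 were higher and 7 lower, 19 of them called in the same direction in both fits, and the median turned to -0.18. Postn, the gene of periostin, a collagen-binding protein of the periosteum, rose from 1220 ± 117 CPM to 12702 ± 1724 CPM (3.33, adjusted p = 7.06e-08). Ccn3 rose from 22.5 ± 0.0739 CPM to 102 ± 3.82 CPM (2.13, adjusted p = 6.69e-06). Ecm1, a secreted matrix protein, fell from 1581 ± 64.8 CPM to 335 ± 106 CPM (-2.28, adjusted p = 5.79e-06).

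The enzymes that build the chondroitin and dermatan sulfate chains of the proteoglycans had 7 higher and 4 lower of 22 tested (50% called), and 5 and 4 with the correction, of which 4 were called in the same direction in both fits. Chpf2, a chondroitin polymerising factor, rose by 1.93 on the log2 scale (from 33.8 ± 10.5 CPM to 133 ± 9.59 CPM, adjusted p = 3.55e-05, and 1.23 with the correction), whereas Papss2, which makes the sulfate donor, fell from 52.4 ± 9.42 CPM to 11.8 ± 2.97 CPM (-2.19, adjusted p = 6.39e-05). Csgalnact1, which starts the chondroitin chain, was lower too (-1.16, adjusted p = 0.0452, and 0.0805 with the correction). Of 14 proteases that cleave or process the members, 7 were higher and 5 lower (85.7% called), and 6 and 4 with the correction. Mmp14, a membrane-bound collagenase, rose from 341 ± 40.2 CPM to 1023 ± 91.6 CPM (1.54, adjusted p = 7.03e-06). Mmp13, a secreted collagenase, fell from 76.5 ± 29.7 CPM to 18.9 ± 12.3 CPM (-2.06, adjusted p = 0.0141, and 0.0805 with the correction), and Adamts4, an aggrecanase, fell by 1.46 (adjusted p = 2.08e-04). Bmp1, the protease that removes the propeptides of biglycan and of fibrillar collagens, was at 102 ± 3.86 CPM and 210 ± 17.7 CPM (adjusted p = 1.90e-04), with a log2 fold change of 0.41 under the correction. Col1a1 and Col1a2, the chains of the collagen to which these proteins bind, rose by 1.51 and 1.89 (adjusted p = 1.16e-05 and 1.42e-06), and by 0.76 and 1.37 with the correction.

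**Figure D5:**
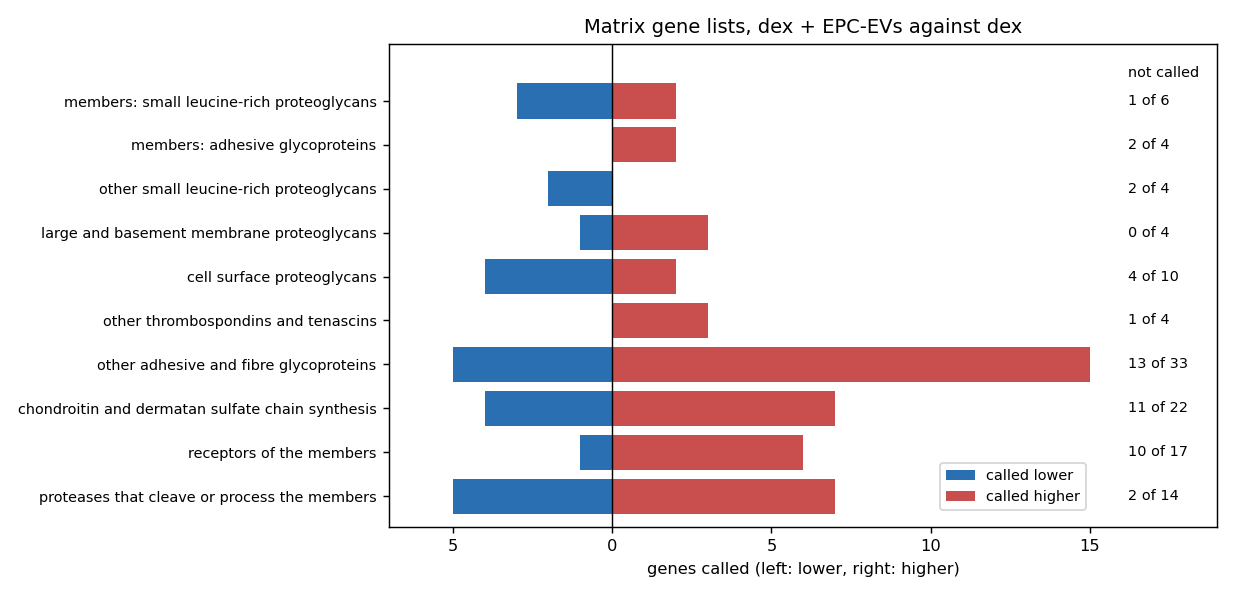
Number of genes called by edgeR as lower (bars to the left) and higher (bars to the right) in dexamethasone + EPC-EVs against dexamethasone for the members and 8 further lists of matrix genes, with the genes not called at the right edge. The other adhesive and fibre glycoproteins have 15 higher and 5 lower of 33, and the other small leucine-rich proteoglycans 0 higher and 2 lower of 4.

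Against control, the lists were read in the same way. Postn (2.88 ± 0.31, adjusted p = 5.44e-04), Tnn (3.83 ± 0.48, adjusted p = 8.68e-04), Spock2 (1.77 ± 0.21, adjusted p = 7.54e-04), Itgb5 (2.33 ± 0.20, adjusted p = 2.49e-04) and Chpf2 (2.53 ± 0.31, adjusted p = 8.36e-04) were higher. Prelp (-2.61 ± 0.33, adjusted p = 9.29e-04), Cd44 (-1.62 ± 0.19, adjusted p = 7.54e-04), Cd47 (-1.73 ± 0.18, adjusted p = 4.31e-04), Papss2 (-2.64 ± 0.28, adjusted p = 4.76e-04) and Ecm1 (-1.94 ± 0.30, adjusted p = 0.00185) were lower. Emilin1, which encodes an elastic fibre glycoprotein, had control libraries at 107 and 37.6 CPM and dexamethasone + EPC-EVs libraries at 404 and 446 CPM (2.50 ± 0.41, adjusted p = 0.0024). Chst14, the sulfotransferase of dermatan sulfate, was at 7.46 ± 3.51 CPM and 32.4 ± 2.36 CPM (2.06 ± 0.39, adjusted p = 0.00478). Gpc1, Mmp14, Hspg2, Itga3, Sdc1 and Thbs3 were also higher and Mmp13, Adamts5 and Vcan also lower, which makes 21 genes named by the same rule. With the GC and length correction 16 of the 21 were called in the same direction, and the calls of 5 ended: Hspg2 (1.20 to 0.19, adjusted p = 0.411), Vcan (-1.28 to -0.68, adjusted p = 0.0599), Sdc1 (0.96 to 0.14, adjusted p = 0.718), Itga3 (1.60 to 0.52, adjusted p = 0.0889) and Thbs3 (0.98 to 0.31, adjusted p = 0.347). Of the 16, the log2 fold changes that moved by over 1.5 times were those of Gpc1 (1.91 to 0.74), Emilin1 (2.50 to 1.15), Chst14 (2.06 to 1.10), Itgb5 (2.33 to 1.31), Spock2 (1.77 to 1.02), Chpf2 (2.53 to 1.48), Mmp14 (1.82 to 1.10), Cd47 (-1.73 to -1.046), Adamts5 (-1.60 to -0.99) and Ecm1 (-1.94 to -3.15). The counts were 12 higher and 4 lower of 34 for the other adhesive and fibre glycoproteins, 7 higher and 2 lower of 22 for the chain enzymes, and 5 higher and 5 lower of 14 for the proteases, or 47.1%, 40.9% and 71.4% called beside the 36.4% of all genes. With the correction they were 8 and 7, 7 and 3, and 3 and 6, beside 27.4% of all genes, and the median of the other adhesive and fibre glycoproteins turned from 0.39 to -0.21.

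The genes whose pattern over the 6 libraries was most like that of a member were found by the root mean square difference of log2 CPM, centred on each gene's mean, among 9223 genes. Among the members themselves the nearest pair was Thbs1 and Thbs2, at 0.0835, followed by Fmod and Tnc, at 0.128, while Dcn and Lum were 0.405 apart. Of all genes, Dcn was most like Mybl1 (0.120), Lum most like Phex (0.117), Bgn most like Cep350 (0.0278) and Fmod most like Axin1 (0.0559). Tnc was most like Ipo9 (0.0306), Fn1 most like Gnb5 (0.0497), Ogn most like Magoh (0.0925), Thbs1 most like Eya1 (0.0536) and Thbs2 most like Atm (0.0617). Aspn had the most distant nearest gene, Limch1 (0.257), followed by Cyr61 (0.272), an adhesive CCN protein gene. Cyr61 was at 230 and 458 CPM in control, 105 and 123 CPM in dexamethasone and 413 and 487 CPM in dexamethasone + EPC-EVs. The 6 libraries fall into 3 groups, so many genes share such patterns, and likeness describes the levels only.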

How the data were processed

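The 6 RNA libraries of MC3T3-E1 Subclone 14 cells were grouped by their labels, with 2 in each of 3 groups. The authors removed low-quality reads, aligned the rest to GRCm38 with HISAT2 in a stranded (RF) setting, counted them per gene with HTSeq 0.6.1 and deposited the raw counts, one column per library. The study's methods describe gene FPKM as sums over transcripts, but the deposited gene FPKM of the authors follow the counts divided by gene length and library total, without a correction for composition, and differ from the sum over transcripts (for Fn1 in control replicate 1, 1620 against 2121). The deposited transcript FPKM were estimated by the authors with StringTie for annotated transcripts and for others assembled from the reads. The sources used here do not give the strand setting of the counting.

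The tool for counts was edgeR 4.0.16 under R 4.3.3 (TMM normalization, filterByExpr, robust quasi-likelihood test), fitted to the 4 libraries of each comparison, over all genes, with Benjamini-Hochberg adjustment, and an adjusted p under 0.05 was called. SEs are the log2 fold change divided by the square root of the F statistic. CPM use TMM totals over the 6 libraries. Transcripts with a mean of at least 0.1 FPKM were tested with limma 3.58.1 on log2(FPKM + 1). Both tests were tested on simulated data. Alternatives were other normalizations and filters, DESeq2 1.42.0, a joint fit of the 6 libraries, a replicate block, removal of mitochondrially encoded genes, correction of each library for GC content and transcript length (loess, span 0.4), leaving out each library, and limma on log2(gene FPKM + 1). The correction for GC content and length was extended to the gene lists after the data were seen.

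The members and gene lists were chosen with earlier results of these data known. All members are named. From each list, up to 3 genes a comparison were taken by the size of the log2 fold change among genes that were called, reached 10 CPM on average and had no overlap between the groups. Agrn, Bmp1 and Cyr61, and most of the cell type markers, were named after their values were seen. Of the 21686 genes, 21646 were found in GENCODE vM21. The report gives the total counts of the libraries. No column of samples outside the labels was present.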

Additional observations from a re-analysis of the deposited data

How the results depend on the processing

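Of 150 alternative values of the members in each comparison, 129 kept their direction and their side of the threshold in dexamethasone against control, 127 in dexamethasone + EPC-EVs against dexamethasone and 133 in dexamethasone + EPC-EVs against control. In dexamethasone against control, where 0 members were called by edgeR, DESeq2 called 3, edgeR without a filter on low counts 4, beside 1.26% of all genes, and the threshold of the study's methods 1, and with a library left out between 0 and 8 were called, beside 0.0661% to 16.0% of all genes. In dexamethasone + EPC-EVs against dexamethasone, where 7 were called, the study's threshold passed 3 and leaving out a library gave between 5 and 8, beside 22.3% to 34.8% of all genes. Against control, where 5 were called, the study's threshold passed 2 and leaving out a library gave between 5 and 6, beside 24.6% to 42.8%. With a library left out, its group has 1 library, and the pair of the other group alone gives the spread. The Fn1 and Fmod transcripts were fitted with a library left out only between dexamethasone + EPC-EVs and dexamethasone. For the same reason no call is read from those fits.

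The replicate numbers did not pair the samples: deviations of samples with the same number correlated at 0.0619, 0.00732 and 0.0114 between the pairs of groups. With the replicate block, 1 member was called in dexamethasone against control, beside 0.334% of all genes, and 0 with that block in a fit of all 6 libraries, beside 0.111%. With the block, 5 transcripts of Fn1 and Fmod were called between dexamethasone + EPC-EVs and dexamethasone, beside 3.24% of all transcripts tested.

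Directions turned for differences of under 0.3 on the log2 scale, or for Ogn with the GC and length correction. Between dexamethasone and control, leaving out a library gave between -0.36 and 0.017 for Bgn and between -0.012 and 0.14 for Fn1, the value on the other side of 0 being that without control replicate 2, and Fn1 was at -0.16 with the correction. Between dexamethasone + EPC-EVs and dexamethasone, Ogn was at -0.019 with upper quartile normalization and with a minimum mean of 10 CPM, at -0.025 with limma on the gene FPKM, and between -0.084 and 0.15 with a library left out (negative without dexamethasone replicate 1 or dexamethasone + EPC-EVs replicate 1), and Fn1 was at -0.046 with the correction. Between dexamethasone + EPC-EVs and control, Ogn was at 0.68 and Fn1 at -0.20 with the correction. The cause of these changes was not tested.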
